A study of Homo sapiens with 24 samples.

Results

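Of the regions whose accessibility changed in VAL cells after 3 h of AZD4573, 852 of 5331 were no longer called changed after 8 h. They were chosen by their presence in a deposited VAL 3 h list and by the absence of the same chromosome, start and end from both VAL 8 h lists, so the calls that define them are a description and carry no test. Of the 3545 regions that increased at 3 h, 237 (6.69%) were increased at 3 h only. Of the 1786 regions that decreased at 3 h, 615 (34.4%) were decreased at 3 h only. The regions of the same direction called at both 3 h and 8 h, 3307 increased and 1171 decreased, served for comparison. A single further region was increased at 3 h and decreased at 8 h, and it is in neither group. The 8 lists of the series hold 26369 distinct regions in all.

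The data are ATAC-seq, in which a transposase cuts and tags DNA that is not covered by nucleosomes or other proteins. VAL and OCI-LY3, both human cell lines from diffuse large B-cell lymphoma (DLBCL), received 30 nM AZD4573, a CDK9 inhibitor, and were collected at 3 h or 8 h. The cells at 0 h are the controls of their own line, and the names of the deposited lists give this control as DMSO. Each line and time had 4 libraries, 2 by a standard protocol with 50000 cells and 2 by Fast-ATAC with 5000 cells according to the labels (the study's methods give Fast-ATAC 50000), so there are 24 libraries in 6 conditions. Each cell line stands for a single culture history, and the labels do not tie the 4 libraries of a group to separate cultures, although the study's methods state biological replicates for its experiments in general. The lists give positions and no values: the depth of each library, the size of each change and the spread between replicates are unknown here, and none of the values below carries replicate error. For the same reason, how far a region lay from the threshold of the 8 h call cannot be given, and absence from the 8 h lists does not show that accessibility had returned to its level at 0 h. Over the 26369 regions, 13.4% were called increased and 6.77% decreased in VAL at 3 h, and 42.2% were called increased and 35.1% decreased at 8 h. The 3 h and 8 h comparisons share the 0 h libraries.

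CDK9 is the kinase of P-TEFb, the complex that releases RNA polymerase II from its pause just downstream of the transcription start site (TSS) and lets it elongate. Its inhibition removes short-lived transcripts first, among them those of MYC and MCL1, on which many lymphomas depend. Promoters in CpG islands are mostly open in all cell types, whereas enhancers in introns and between genes carry much of what is particular to a B cell. CTCF is a zinc finger protein that binds DNA at the anchors of chromatin loops. Interferon regulatory factors (IRFs) bind GAAA repeats, and IRF4 and IRF8 are central to B-cell identity. The octamer ATGCAAAT is bound by the POU factors OCT1 and OCT2, with POU2AF1 as a B-cell coactivator.

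Among 9 motifs searched on both strands of the central 200 bp, the IRF motif had the lowest p in the increased regions and CTCF had it in the decreased regions, so 3 examples of each are shown. The sequences are 100 bp of the forward strand of hg19, read from the GRCh37 reference, with the matched bases in capitals. The first 3 are from regions increased at 3 h only and hold the IRF motif on the reverse strand, so that GAAA reads as TTTC in the listing. The first and second of these match without a mismatch and the last with 1. They lie in an intergenic stretch whose nearest coding gene is SLC34A2 (chr4:25729262-25730388), in an intron of GPC5 (chr13:92437476-92438482) and in a region of HEATR5B that reaches an exon (chr2:37232068-37233065).
SLC34A2 region: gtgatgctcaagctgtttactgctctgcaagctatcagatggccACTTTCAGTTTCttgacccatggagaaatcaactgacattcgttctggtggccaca
GPC5 region: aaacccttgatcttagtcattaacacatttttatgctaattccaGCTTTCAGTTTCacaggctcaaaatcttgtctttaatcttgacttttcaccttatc
HEATR5B region: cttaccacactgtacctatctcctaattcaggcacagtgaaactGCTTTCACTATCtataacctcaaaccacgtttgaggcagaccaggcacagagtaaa

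The other 3 are from regions decreased at 3 h only and hold the CTCF core on the forward strand, without a mismatch. They lie in an intron of SLC35F3 (chr1:234201173-234202553), in a region of LRP2 that reaches an exon (chr2:169987765-169989130) and 27 bp before the start of the pseudogene PPIAP68, outside any gene (chr2:206812121-206813788).
SLC35F3 region: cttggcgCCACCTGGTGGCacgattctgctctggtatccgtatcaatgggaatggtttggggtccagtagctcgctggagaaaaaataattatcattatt
LRP2 region: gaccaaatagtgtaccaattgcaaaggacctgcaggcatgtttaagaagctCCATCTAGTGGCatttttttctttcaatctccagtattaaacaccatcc
PPIAP68 region: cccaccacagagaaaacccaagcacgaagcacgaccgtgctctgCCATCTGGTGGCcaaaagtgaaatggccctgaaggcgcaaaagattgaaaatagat

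The regions increased at 3 h only were mostly not promoters and were poor in G and C beside the increases that lasted. A promoter, taken as a region within 1000 bp of an annotated TSS, was found for 68 of 237 (28.7%, 95% Wilson interval 23.3 to 34.8), against 1898 of 3307 (57.4%) of the regions increased at both times. The odds ratio was 0.3 (95% interval 0.225 to 0.401; two-sided Fisher's exact test over regions, adjusted p = 9.79e-17), and the share was lower on 17 of 22 autosomes. Introns held 105 of the increased regions (44.3%, against 21% of those increased at both times), intergenic sequence held 43 and exons held 21. Their median GC content was 48.4% against 58.8%, and 43 of 237 (18.1%) lay at or above the median of all VAL 3 h increased regions, against 52.3% (odds ratio 0.204, 0.146 to 0.285; adjusted p = 2.58e-24; lower on 21 of 21 autosomes compared). The central 200 bp were like a CpG island, with at least 50% GC and an observed over expected CpG of at least 0.6, in 48 (20.3%) against 48.6% (odds ratio 0.27; adjusted p = 5.51e-17). Within the GC-rich regions alone the promoter odds ratio was 0.543 (adjusted p = 0.18), and within the GC-poor regions it was 0.499 (adjusted p = 0.000289), so promoter share and base composition moved together.

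The regions decreased at 3 h only lay where the lasting decreases lay but had a somewhat higher GC content. Promoters made up 64 of 615 (10.4%, 8.23 to 13.1) against 118 of 1171 (10.1%), an odds ratio of 1.04 with an interval of 0.755 to 1.43 (adjusted p = 0.898). Introns held 292 (47.5%), intergenic sequence 201 (32.7%) and exons 58. The median GC content was 42.1% against 40.2%, and 361 of 615 (58.7%) lay at or above the median of all VAL 3 h decreased regions against 45.4% (odds ratio 1.71, 1.4 to 2.08; adjusted p = 5.09e-07; higher on 17 of 20 autosomes). In each direction, the base composition of the regions called at 3 h only was thus shifted towards that of the opposite direction. The promoter share of the increased regions called at 3 h only was above that of the decreased ones, with an odds ratio of 3.46 (2.36 to 5.06, two-sided Fisher's exact test over regions, adjusted p = 2.2e-09). The odds ratio was 7.21 when only TSS of protein-coding genes were counted and 2.48 with a 2500 bp limit. Of the promoters, 56 of the 68 increased ones (82.4%) belonged to a protein-coding gene and 28 (41.2%) held start sites of both strands, against 25 (39.1%) and 3 of the 64 decreased ones. The regions called at both times had a like contrast, with 89.9% and 35.5% of the increased promoters and 31.4% and 5.08% of the decreased ones.

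**Figure D1:**
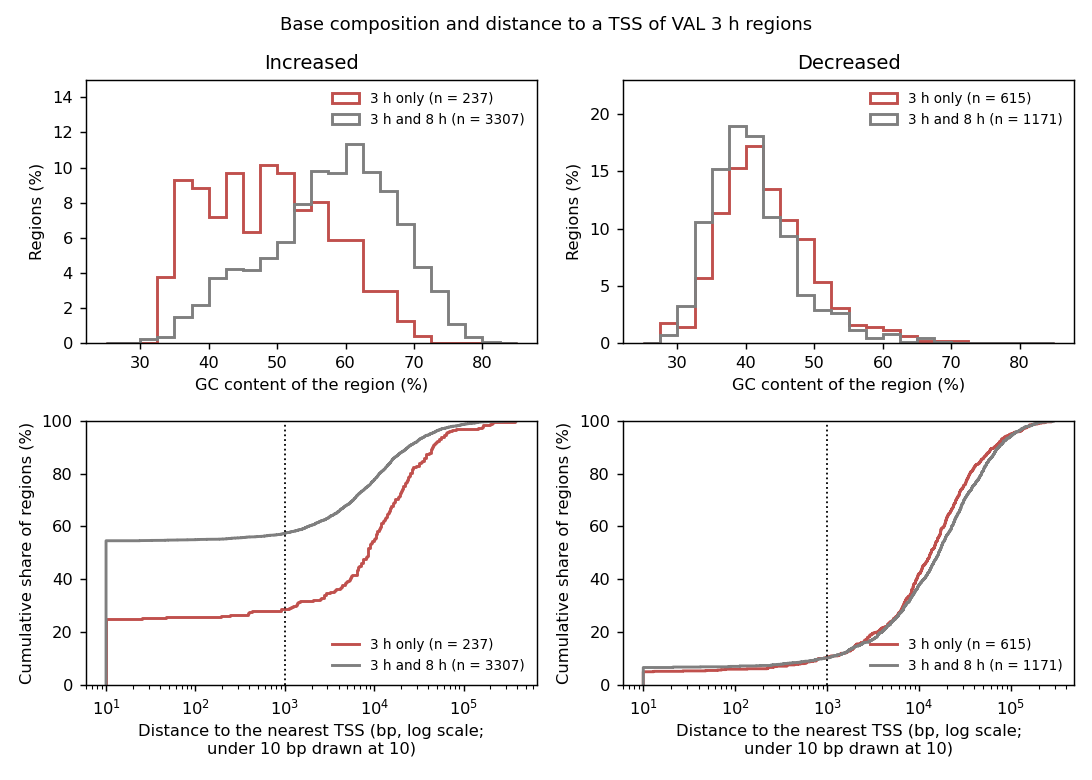
Upper panels, GC content of each region in percent against the percent of regions in the group. Lower panels, distance to the nearest TSS in bp on a log scale against the cumulative percent of regions, with a dotted line at 1000 bp. Red lines are regions called in VAL at 3 h only and grey lines those called at both 3 h and 8 h. The increased regions of 3 h only lie to the left of the others in GC (medians 48.4% and 58.8%) and fewer lie at a TSS, while the decreased groups nearly overlap in distance.

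Regions called at 3 h only tended to be narrower. Their median width was 1238 bp against 1459 bp for increases and 1185 bp against 1308 bp for decreases. At or above the median width of all VAL 3 h regions of the direction were 35.9% of the increased ones against 51.1% (odds ratio 0.537, 0.409 to 0.706; adjusted p = 1.97e-05) and 39.5% of the decreased ones against 55.7% (odds ratio 0.52, 0.427 to 0.635; adjusted p = 7.15e-10). For increases the difference did not pass at the upper quartile of width (odds ratio 0.817, adjusted p = 0.416) or away from promoters (0.707, adjusted p = 0.151). The width of a called peak goes with its read number, and read number with the power of a count test. The part that power has in the loss of a call at 8 h was not tested.

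**Figure D2:**
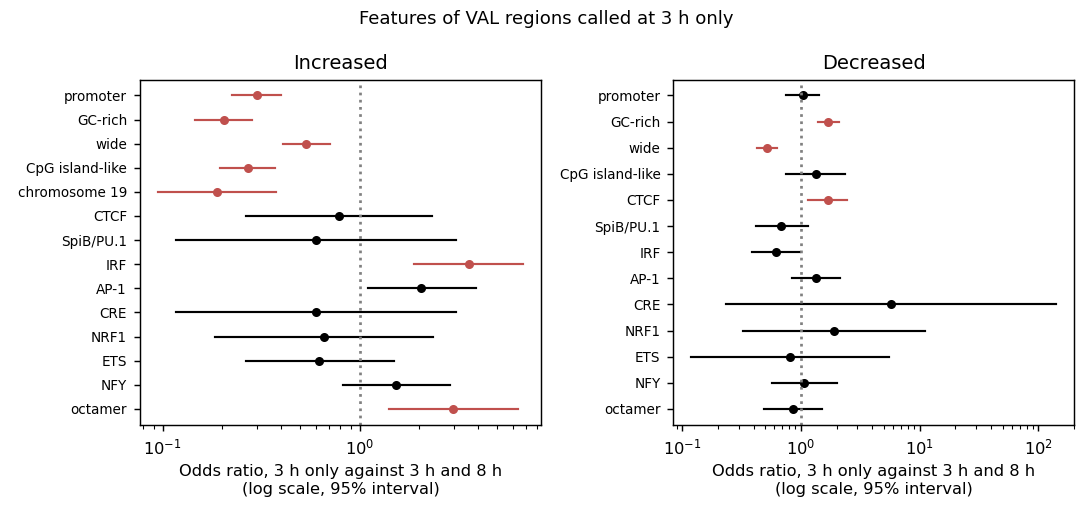
Odds ratio of each feature on a log scale, with its 95% interval, for regions called in VAL at 3 h only against those called at 3 h and 8 h in the same direction. Red marks an adjusted p under 0.05. Promoter, GC-rich, wide, CpG island-like and chromosome 19 fall below 1 for increases, and GC-rich lies above 1 for decreases.

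The chromosomes were filled very unevenly. Chromosomes 16, 17, 19, 20 and 22, which are rich in genes and in GC, held 50% of the regions increased at both times but only 21 of the 237 increased at 3 h only (8.86%). On chromosome 19 there were 8 (3.38%) against 541 (16.4%), an odds ratio of 0.189 (0.0948 to 0.378; adjusted p = 6.57e-09). Without members that had a VAL 8 h region of the same direction within 10000 bp it was 0.091, a filter that takes out members where 8 h increases are dense, as on chromosome 19, and leaves the comparison regions in place. The share of the 3 h increases that were not called at 8 h ran, over the autosomes, from 0.743% on chromosome 17 and 0.857% on chromosome 16 to 27.3% on chromosome 18 and 30% on chromosome 13. With the 5 chromosomes left out the promoter odds ratio was still 0.451 (adjusted p = 8.16e-07). Decreased regions were rare on these chromosomes in both groups (2.76% against 1.45%). None of the 615 lay on chromosome 19, which allows a share of up to 0.621% (upper Wilson limit).

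**Figure D3:**
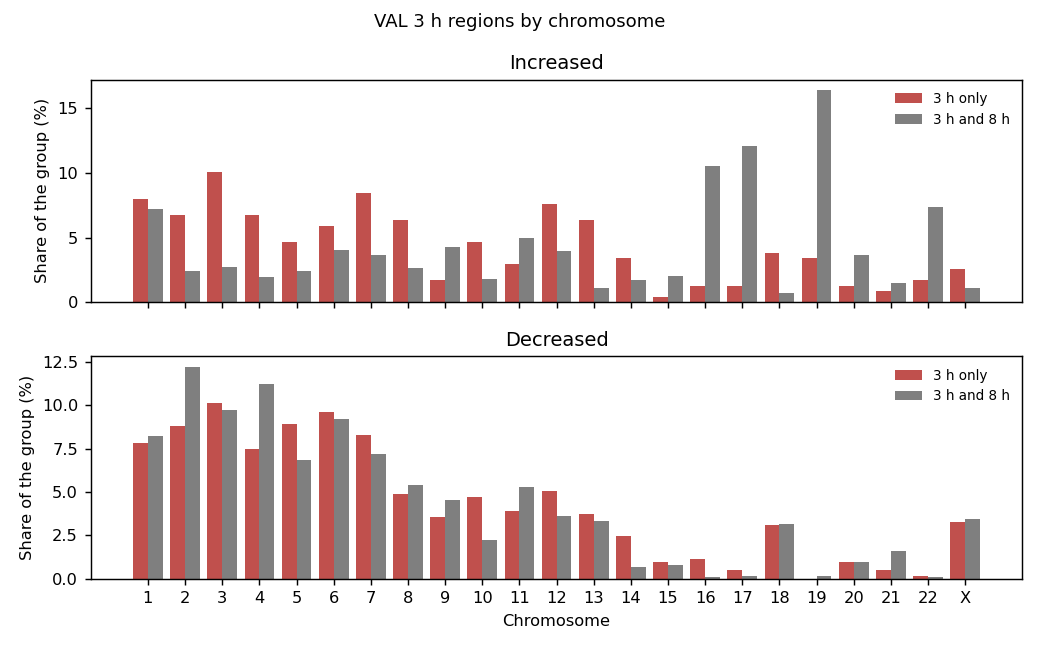
Percent of each group that lies on each chromosome, for increased regions (upper panel) and decreased regions (lower panel) of VAL. Red bars are regions called at 3 h only and grey bars those called at 3 h and 8 h. Grey bars dominate on chromosomes 16, 17, 19 and 22 for increases (16.4% against 3.38% on chromosome 19), and no such gap is seen for decreases.

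Short motifs set the groups apart only weakly. An IRF match was present in 12 of the 237 increased regions (5.06%, 2.92 to 8.64), against 50 of 3307 (1.51%) increased at both times and 3.45% of all 26369 regions (odds ratio 3.58, 1.9 to 6.74; adjusted p = 0.00179). Of these 12 matches, 2 had no mismatch, and with none allowed the call was lost (odds ratio 10, adjusted p = 0.0917). The octamer ATGCAAAT was present in 8 (3.38%) against 40 (1.21%) and 2.79% of all regions (odds ratio 2.99, 1.41 to 6.34; adjusted p = 0.0306). Both motifs are rich in A and T, and all matches in the increased regions of 3 h only lay in the GC-poor ones. Within the 43 GC-rich regions neither motif had a match, against 16 for IRF and 4 for the octamer among 1730 regions increased at both times, which is too few to tell the groups apart (odds ratios 1.19 and 4.41 with 0.5 added to each cell, adjusted p = 1 for each). Within the GC-poor ones the odds ratio was 3.06 for IRF (adjusted p = 0.00782) and 1.92 for the octamer, which did not pass (adjusted p = 0.283). The share was higher in the regions of 3 h only on 8 of 19 autosomes for IRF and 5 of 18 for the octamer. With 12 and 8 matches in all, at most 12 and 8 autosomes could count. These counts thus cannot show whether the difference was even over the genome. The octamer also missed the threshold without chromosome 19 (odds ratio 2.72, adjusted p = 0.0501) and without chromosomes 16, 17, 19, 20 and 22 (2.5, adjusted p = 0.103), and away from promoters neither motif passed (IRF 2.65, adjusted p = 0.102; octamer 2.09, adjusted p = 0.22). A region with an IRF match covered the promoter of FIS1, a mitochondrial fission factor (chr7:100894824-100896377), and one with the octamer covered the promoter of the histone gene H2BC14.

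The CTCF core was present in 52 of the 615 decreased regions (8.46%, 6.51 to 10.9), against 61 of 1171 (5.21%) decreased at both times and 4% of all regions (odds ratio 1.68, 1.15 to 2.46; adjusted p = 0.026). The share was higher on 10 of 17 autosomes. The result did not hold when the whole region was searched (odds ratio 1.22, adjusted p = 0.266), when no mismatch was allowed (1.5, adjusted p = 0.453) or among GC-poor regions (1.57, adjusted p = 0.233), and it held among GC-rich ones (2.03, adjusted p = 0.0389). In the same regions an IRF match was present in 3.9% against 6.23% (adjusted p = 0.102) and the SpiB/PU.1 motif in 3.41% against 4.95% (adjusted p = 0.285). AP-1 (TGACTCA) was present in 4.64% of increased regions against 2.39% (adjusted p = 0.102) and in 5.04% of decreased regions against 3.84% (adjusted p = 0.453). CRE (TGACGTCA), NRF1 (GCGCATGC), ETS (CCGGAAGT) and NFY (AGCCAAT) did not pass in either direction, and CRE and NRF1 had at most 2 matches in either group of 3 h only. A match of letters says nothing of whether the factor was bound.

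The OCI-LY3 lists come from other libraries and took no part in the choice of the regions. Increased regions of 3 h only were called increased in OCI-LY3 at 3 h in 43 of 237 cases (18.1%, 13.8 to 23.5), against 20.7% of the regions increased in VAL at both times and a background of 9.24% over all VAL regions increased at either time. The odds ratio was 0.854 with an interval of 0.608 to 1.2 (adjusted p = 0.519). At 8 h they were called increased in OCI-LY3 in 54 cases (22.8%), against 38% and a background of 21% (odds ratio 0.485, 0.356 to 0.661; adjusted p = 6.74e-06; lower on 18 of 22 autosomes). The 3 h odds ratio was above 1, without passing, within 1000 bp of a TSS (1.31), farther away (1.16) and among GC-rich regions (1.81, adjusted p = 0.147). Their share in OCI-LY3 thus had no clear direction against the lasting increases at 3 h, and it was close to the background at 8 h. This background consists of changed regions, 11121 of its 11359 being increased in VAL at 8 h, and is not a rate by chance. The 8 h difference did not pass among promoters alone (odds ratio 0.635, adjusted p = 0.169) or among GC-rich regions alone (0.624, adjusted p = 0.309).

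Decreased regions of 3 h only were less often called in OCI-LY3 than lasting decreases at both times. At 3 h they were called decreased in 68 of 615 cases (11.1%, 8.82 to 13.8), against 17.8% and a background of 5.46% (odds ratio 0.575, 0.429 to 0.77; adjusted p = 0.000443; lower on 15 of 20 autosomes). At 8 h it was 89 cases (14.5%), against 26.5% and a background of 12% (odds ratio 0.472, 0.364 to 0.611; adjusted p = 1.84e-08; lower on 16 of 20 autosomes). These odds ratios stayed between 0.406 and 0.515 within the GC-rich and the GC-poor regions. As for the increases, the 8 h share was near the background and the 3 h share above it.

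**Figure D4:**
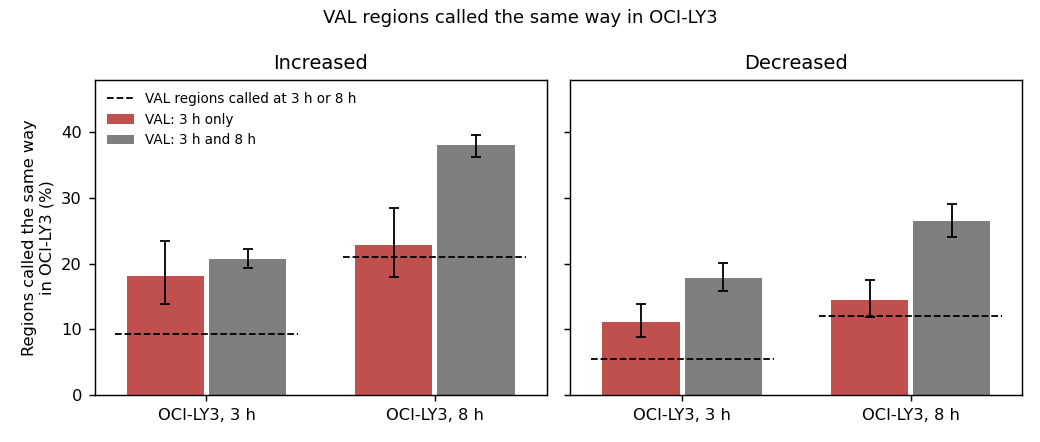
Percent of VAL regions that were called in the same direction in OCI-LY3 at each time, with 95% Wilson intervals as error bars. Red bars are VAL regions called at 3 h only, grey bars those called at 3 h and 8 h, and the dashed lines give the percent over all VAL regions of that direction called at either time. At 8 h the red bars lie near the dashed line (22.8% against 21%, and 14.5% against 12%) and the grey bars lie above it.

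Among the regions called at 3 h in both lines, those that VAL no longer called at 8 h were more often absent from the OCI-LY3 8 h list as well. Of the 43 increased ones, 12 (27.9%, 16.7 to 42.7) were called in OCI-LY3 at 3 h and not at 8 h, against 71 of 686 (10.3%) of the regions increased in VAL at both times (odds ratio 3.42, 1.7 to 6.88; two-sided Fisher's exact test over regions, p = 0.00172, 0.00268 adjusted over the 2 directions). Of the 68 decreased ones it was 28 (41.2%, 30.3 to 53), against 46 of 209 (22%) (odds ratio 2.47, 1.39 to 4.42; adjusted p = 0.00268). This comparison was chosen after the data were seen. The OCI-LY3 3 h and 8 h calls share their 0 h libraries, in the same way for both groups of regions. Among wide regions alone the odds ratio was 4.63 for increases (adjusted p = 0.00268) and 2.16 for decreases, which did not pass (adjusted p = 0.136). Most regions of 3 h only, 167 increased (70.5%) and 497 decreased (80.8%), were in no OCI-LY3 list of either direction, as were 59.1% of the regions increased and 69.4% of those decreased in VAL at both times.

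Some promoters increased in both lines at 3 h and were in no VAL list at 8 h. A coding TSS lay inside 20 of the 43 regions increased at 3 h only that were called in OCI-LY3 at 3 h. The like count was not made for regions increased at both times, so these promoters are a description and not a trait particular to the group. The 10 widest were at WDR26 (a subunit of a ubiquitin ligase), FBXL18 (an F-box protein), KRIT1, KTN1 (kinectin), MNAT1, DNASE1L1, PRPF38B (a splicing factor), SLC30A6 (a zinc transporter), CEBPZ and DGKZ (a diacylglycerol kinase). MNAT1 is the assembly factor of the CDK7 kinase that phosphorylates RNA polymerase II and activates CDK9. Its region (chr14:61200766-61202657, 1892 bp) had a GC content of 43%, the lowest of these 10, and was also called in OCI-LY3 at 8 h. The WDR26 region (chr1:224620923-224623459), the widest of the 10 at 2537 bp, and those of KRIT1 and SLC30A6 were called in OCI-LY3 at 3 h and not at 8 h. Among the 68 decreased regions of 3 h only called in OCI-LY3 at 3 h, the counterpart was a single promoter, at KSR2 (chr12:118406287-118407654). KSR2 is a scaffold of the RAF-MEK pathway, and its region was not called in OCI-LY3 at 8 h.

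The widest increases of 3 h only were a mixture of promoters and introns. The widest, at 2830 bp, lay in an intron on chromosome 3 with SPATA12 as the nearest coding gene, followed by the PVT1 promoter at 2732 bp and the promoter of USP42, a deubiquitinase, at 2663 bp. Introns near TSPAN14, PNKD and GSK3B and the promoters of WDR26, PDE12, H4C5 and H2BC14 complete the 10. H4C5 (2201 bp) and H2BC14 (2199 bp) code for core histones, and another histone promoter, that of H3C12 (1040 bp), was picked out after the values were seen. None of these 3 was called in OCI-LY3. The widest decreases lay mostly away from promoters: near MSC (2783 bp), TIMD4, MACC1, TCF4, PALLD, ACKR1, TNFAIP3, TDRD5, PTGER3 and ATG10. TCF4 is a basic helix-loop-helix factor of B-cell development, and the region in it (chr18:52901477-52903994) reached an exon and was not called in OCI-LY3. Of these 10 only the PTGER3 region (chr1:71518734-71520876) was called in OCI-LY3, at 3 h and not at 8 h.

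Of the 12 gene lists examined, that of B-cell transcription factors had the most genes near a region of 3 h only, all of them decreased. A decreased region of 3 h only lay within 5000 bp of 5 of 21 of these genes (23.8%, against 2.09% of all 20136 protein-coding genes), and regions decreased at both times lay near 5 of 21 as well, against 3.4% of all coding genes. Regions increased at both times lay near 7 of them (33.3%, against 15.9% of all coding genes). Long genes have more room for regions, and gene length was not matched. The 5 were BACH2, FOXP1, IKZF1, POU2AF1 and MYC. BACH2, a repressor that keeps B cells from becoming plasma cells, held 7 of them, all in introns of the gene and between 104 and 216 kb downstream of its canonical TSS, and the nearest annotated BACH2 TSS was 13128 to 125140 bp away. FOXP1, a forkhead factor of B-cell survival, had 1 in an intron (chr3:71080534-71082074) and 1 at an internal promoter (chr3:71246831-71247461). IKZF1, which codes for the lymphoid factor Ikaros, had 1 at chr7:50460969-50462198, which was called in OCI-LY3 at 8 h. POU2AF1, the coactivator of octamer factors, had 1 at chr11:111229346-111230539, which was called in OCI-LY3 at 3 h and not at 8 h, and a further 6 regions near this gene were decreased in VAL at 8 h.

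The BACH2 locus showed all classes of decrease side by side. Besides the 7 regions of 3 h only, 4 regions were decreased at both times and 2 at 8 h only. The 7 were 514 to 1883 bp wide, and the single one of them called in OCI-LY3 (chr6:90817592-90818597) was called there at 3 h and not at 8 h. No other megabase window held as many decreased regions of 3 h only. The next, at 28 Mb of chromosome 6 around SCAND3, TRIM27 and LINC01556, held 5, and 445 of the 519 windows with any held 1. For increases the fullest window, at 5 Mb of chromosome 7 and including the FBXL18 promoter, held 3. The 1 VAL region that changed direction, increased at 3 h and decreased at 8 h (chr6:90630833-90632667, 1835 bp), lay 3580 bp beyond the 3′ end of BACH2 and was in no OCI-LY3 list.

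At MYC, the oncogene whose transcript is among the shortest lived, a decreased region of 3 h only covered the end of the gene (chr8:128753764-128755378, 1615 bp, centred 6.09 kb downstream of the TSS). It was called decreased in OCI-LY3 at both 3 h and 8 h. The region over the MYC TSS was decreased in VAL at 8 h only. PVT1, a long noncoding RNA gene that follows MYC and shares enhancers with it, had its promoter increased at 3 h only (chr8:128806166-128808897) and 2 regions in its body decreased at 3 h only, at 238 and 278 kb from the MYC TSS. From MYC to just past the end of PVT1, 1 region was decreased at both times and 4 at 8 h only. These 4 include the region over the MYC TSS and 1 at 455 kb, past the end of PVT1 at 451 kb. Neither the PVT1 promoter nor the 2 regions in its body were called in OCI-LY3.

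**Figure D5:**
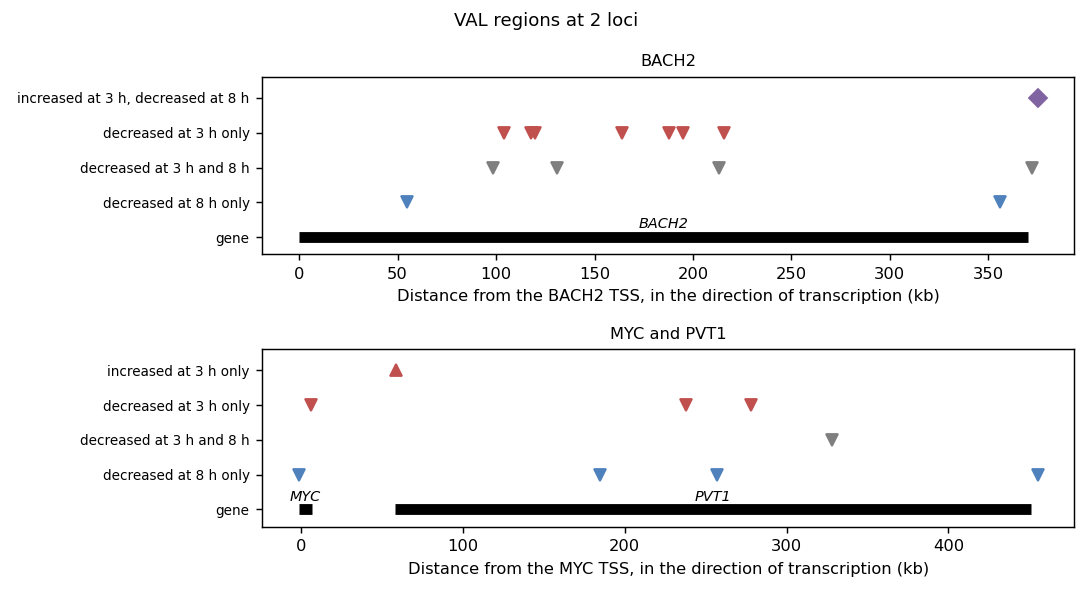
VAL regions at BACH2 (upper panel) and at MYC and PVT1 (lower panel), placed by the distance of their centre from the TSS of BACH2 or MYC in kb, in the direction of transcription. Rows give the time and direction of the calls, and black bars are the genes. The 7 regions decreased at 3 h only at BACH2 lie between 104 and 216 kb, among regions decreased at both times.

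Increased regions of 3 h only lay near 3 of 17 genes of the NF-kB list (17.6%, against 1.08% of all coding genes), and regions increased at both times lay near 4 of 17 (23.5%, against 15.9%). Decreased regions of 3 h only lay near none of the 17, too few genes to tell 0 from the 2.09% of all coding genes. RELB codes for a subunit of NF-kB, TNFAIP3 for A20, a ubiquitin-editing inhibitor of the pathway, and TRAF1 for an adaptor of TNF receptors. The regions lay in introns of RELB (chr19:45513191-45513983) and TNFAIP3 (chr6:138194136-138195025) and in a region of TRAF1 that reaches an exon (chr9:123667504-123668299). All 3 were called increased in OCI-LY3 at 8 h, and that of RELB at 3 h as well. They were narrow, at 793, 890 and 796 bp. A decreased region of 3 h only, among the 10 widest, lay 36356 bp from the nearest TSS of TNFAIP3 at the start of a noncoding transcript. Near RELB 3 further regions were increased in VAL at both times, while near TNFAIP3 none was called at 8 h and near TRAF1 2 regions were decreased at 8 h.

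Decreased regions of 3 h only lay near 3 of 21 genes of SR and hnRNP splicing factors (14.3%, against 2.09% of all coding genes), each of them beyond the 3′ end, and regions decreased at both times lay near 4 of 21 (19%, against 3.4%). They lay 582 bp past SRSF7, 694 bp past HNRNPA1 and 4633 bp past SRSF1. All 3 were called decreased in OCI-LY3 at 8 h, and those at SRSF7 and HNRNPA1 at 3 h as well. PIM1, a kinase of B-cell survival, had a decreased region 1289 bp past its end (chr6:37144493-37145231), called in OCI-LY3 at 8 h. BTG2, an immediate early antiproliferative gene, had one 1801 bp past its end (chr1:203280531-203281044) and CD74, the MHC class II invariant chain, one that reached its 3′ end (chr5:149780761-149781276), the latter called in OCI-LY3 at both times. BCL2, the antiapoptotic oncogene, held 2 in introns (chr18:60966771-60967693 and chr18:60974844-60975653) beside 11 regions decreased at both times, and neither was called in OCI-LY3. MLLT3, a subunit of the super elongation complex, was the only 1 of 26 elongation genes with a region of 3 h only, a decrease in an intron (3.85%, beside 2.09% of all coding genes), and IRF2 had a decrease in an intron. Near PIM1 and SRSF1 1 region each was increased in VAL at 8 h, and near BTG2 1 region was increased at both times.

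Of the remaining list genes, NR4A1, an immediate early nuclear receptor, had an increased region at an internal promoter (chr12:52430233-52431306). This region lay 193 bp from an annotated NR4A1 TSS, inside a gene that starts at chr12:52416616. No VAL 8 h region of either direction lay within 5000 bp of the gene. HLA-DMA, which loads peptides on MHC class II, had an increased region over its TSS (chr6:32920359-32921622). PLCG2, a phospholipase of B-cell receptor signalling, HDAC1, a histone deacetylase, and PIK3CB, a catalytic PI3K subunit, had increases in introns. None of the regions at these 5 genes was called in OCI-LY3. Near PLCG2 3 other regions were increased in VAL at 8 h, 1 of them at both times, and near HDAC1 3 were increased at 8 h. Near PIK3CB 1 region was decreased at 8 h. No region of 3 h only lay near the 16 genes of the p53 axis or the 11 of CTCF and cohesin, lists too short to tell 0 from the 1.08% and 2.09% of all coding genes, and none near 25 markers of B, T, myeloid, epithelial or erythroid cells, so these regions could not be used to check the cell type.

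Few sites of 3 h only lay close to an 8 h region. The authors joined the peaks of all libraries before the calls, so peaks that overlapped were already a single region. For this reason the lists cannot show whether a site was the edge of a larger 8 h change. The nearest VAL 8 h region of the same direction was a median of 183752 bp from the increased ones and 79402 bp from the decreased ones. It was within 1000 bp for 4 and 7 of them, and within 10000 bp for 38 (16%) and 73 (11.9%). Regions of the opposite direction at 8 h lay within 10000 bp of 20 increased (8.44%) and 30 decreased ones (4.88%). The median distance to the nearest such region was 187723 bp for increases of 3 h only and 3930452 bp for increases at both times, and 341612 bp against 498767 bp for decreases. Distances to 8 h regions of the same direction were not taken for the regions called at both times. The 8 h lists took part in the choice of both groups, so all distances given here are a description.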

How the data were processed

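ATAC-seq libraries of VAL and OCI-LY3 were assigned to line and time from the labels. Per the labels and the study's methods, the authors aligned reads with Bowtie2 to hg19, removed mitochondrial, non-unique and duplicate reads, ran MACS2 per library, joined the peaks with bedtools, counted reads and ran DESeq2 on each time against 0 h, keeping fold changes above 1.5 in either direction. The adjusted p cutoff is given in more than 1 form, and any transposase offset is not given in the sources used here. The deposited files are 8 lists of chromosome, start and end, with 0 columns of per-sample values. The number of merged peaks tested is not in the lists, so percentages called are over regions of the lists.

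Regions were matched by chromosome, start and end. Starts are printed 1-based. Sequence came from GRCh37 and genes from GENCODE 44 lifted to GRCh37 (basic transcripts for TSS). Proportions were compared with two-sided Fisher's exact tests in scipy 1.17.1 (Python 3.11.15), with 0.5 added to each cell for odds ratios and Benjamini-Hochberg adjustment over 33 tests. Intervals cover counting error over regions, which share libraries and are not replicates. The CTCF, SpiB/PU.1 and IRF motifs allowed 1 mismatch and the others none. Search and tests were checked on simulated data. Alternatives changed the TSS distance, motif window, mismatches, chromosomes, width, base composition and merging of neighbours within 10000 bp. Repeat content was planned but not run, because the reference marks no repeats.

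The members, the 12 gene lists (223 genes) and the tests were chosen with earlier results of these data known. Named genes are list genes with a member within 5000 bp, coding TSS inside a member also called in OCI-LY3 at 3 h (10 widest), the 10 widest members per direction, the fullest windows of 1000000 bp and regions that changed direction. Promoters named beside motif matches were chosen after their values were seen.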

Additional observations from a re-analysis of the deposited data

How the results depend on the processing

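No paired analysis was possible because the deposited lists hold no per-library values, and for the same reason no library could be left out and no other normalization or count filter tried. Of 265 alternative values, 218 kept their direction and their side of the threshold. The odds ratio for increased regions in OCI-LY3 at 3 h, which did not pass, turned to 1.31 within 1000 bp of a TSS, 1.16 farther away, 1.22 in wide regions and 1.81 in GC-rich regions. At 8 h it was no longer past the threshold at 0.635 among promoters and 0.624 in GC-rich regions. The promoter odds ratio of increased regions was 0.543 in GC-rich regions and no longer passed. That of decreased regions passed in no setting. It was 0.921 with a 500 bp limit, 0.826 in GC-poor regions and 1.31 with TSS of protein-coding genes only. The wide share of increased regions no longer passed at 0.817 for the upper quartile and 0.707 away from promoters. The CpG island-like share of decreased regions was 0.872 over the whole region. The share of decreased regions lost by 8 h in OCI-LY3 no longer passed at 3.15 within 1000 bp of a TSS and 2.16 in wide regions. The splits by GC content, the restriction to wide regions, the removal of the gene-rich chromosomes, all settings of the share lost by 8 h in OCI-LY3 and, other than for the OCI-LY3 calls, the restriction to regions away from promoters were chosen after seeing the data.

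Motif odds ratios that turned, none of them past the threshold as reported, were as follows. With the whole region searched, SpiB/PU.1 was 1.03, AP-1 0.976 and NFY 0.983 in increased regions, and ETS 1.06 and NFY 0.819 in decreased ones. With no mismatch, CTCF was 2.79 and SpiB/PU.1 2.78 in increased regions. Away from promoters, CRE was 1.66, NRF1 1.66 and ETS 1.92 in increased regions. In GC-rich regions, CTCF was 1.59, SpiB/PU.1 1.88, NRF1 1.59 and ETS 2.68 in increased regions, and SpiB/PU.1 1.03 and ETS 1.47 in decreased ones. In GC-poor regions, CRE was 1.06 in increased and the octamer 1.15 in decreased regions. With the whole region searched, CTCF (0.516) and NRF1 (0.374) in increased regions and IRF (0.701) and the octamer (0.634) in decreased regions passed, which they did not in the central 200 bp. For 3 motif settings no value could be computed. The cause of these changes was not tested.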

Other observations

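Because several named decreases lay just beyond the 3′ ends of genes, the share of regions near the end of a protein-coding gene was counted after the data were seen, in 5 windows and both directions. From 1000 bp before to 5000 bp after a gene end lay 82 of the 615 regions decreased at 3 h only (13.3%), against 153 of 1171 (13.1%) decreased at both times (odds ratio 1.03, 0.77 to 1.37; two-sided Fisher's exact test over regions, p = 0.994 adjusted over 10 tests). In the other 4 windows the odds ratio of the decreased regions lay between 0.951 and 1.41, with none past the threshold. For the increased regions the same window held 18 of 237 (7.59%) against 626 of 3307 (18.9%), an odds ratio of 0.361 (0.223 to 0.584; adjusted p = 9.83e-06), and all 5 windows passed with odds ratios of 0.361 to 0.52. The chromosomes and base composition described above differ between these groups too, and their part in this difference was not tested.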
